A study of Mus musculus with 4 samples.

Results

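The cytosolic ribosomal protein genes encode the proteins of the ribosome that translates messenger RNA in the cytoplasm. They were taken here as the protein-coding rows of the deposited count table whose names follow the Rpl and Rps series, with Rplp0, Rplp1, Rplp2 and Rpsa and without the Rps6k kinases. This gave 82 genes of 56493 in the table, 47 named for the large subunit, 32 for the small subunit and 3 for the stalk. The rule uses names and gene type only, but it was chosen with earlier results of these data known. The RNA came from wild-type mouse retina, from sorted cells that the labels call retinal ganglion cells, the neurons that send axons through the optic nerve. All mice had an adeno-associated virus (AAV2) injected into the vitreous and had the optic nerve crushed 1 month afterwards. The virus carried CrAT, the gene of carnitine acetyltransferase (AAV2-CrAT), in 2 libraries, and was AAV2-MCS in the other 2 libraries. The labels do not spell out MCS, nor NCd8, which every sample title holds, and give no age of the mice, no promoter of the vectors and no statement that replicates were separate animals, so p-values here reflect only how far these samples lie apart, which may be technical.

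A cytosolic ribosome has a small subunit, which holds the messenger RNA and decodes it, and a large subunit, which joins the amino acids. Most of the ribosomal proteins are needed in a single copy per ribosome, and their genes are expressed in every cell type. In mammals their messenger RNAs begin with a C followed by a stretch of C and T (U in the RNA), the terminal oligopyrimidine (TOP) tract, through which the kinase mTOR and the protein LARP1 adjust how strongly all of them are translated. Neurons also carry these messenger RNAs into axons.

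Depth was 24494253 to 27097438 counts per library. Ribosomal protein genes took 1.23% and 1.20% of the counts with CrAT, against 0.945% and 1.42% with MCS, replicate 1 first here and in every pair of values that follows. Markers of the labelled cell type were few. Of 12 ganglion cell genes, 11 were tested, and their summed level was 219 and 328 CPM (read counts scaled to a common library size with TMM factors) in CrAT and 155 and 220 CPM in MCS. Pou4f2, a defining transcription factor of these cells, had 0 counts in 3 libraries and 6 in MCS replicate 2. The 13 rod markers summed to 52807 and 28598 CPM with CrAT, against 51189 and 30235 CPM with MCS. Rod transcripts thus far outnumbered ganglion cell transcripts in every library.

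The start of the gene was read in the RefSeq promoter table (build GRCm38.p6), which held 62 of the 82 genes with 74 start sites. The windows shown run from 10 bases before to 20 bases from the annotated start, on the strand of the gene, with the longest run of C and T in capitals. They belong to the genes that were lowest or highest in MCS replicate 1 relative to the other libraries, where the table held them, and to Rps6 and Rplp2, which carry a clear pyrimidine tract.
Rpl6, chr5:121204491-121204520, plus strand: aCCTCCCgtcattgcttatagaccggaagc
Rpl38, chr11:114668570-114668599, plus strand: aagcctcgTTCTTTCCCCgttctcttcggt
Rpl28, chr7:4792955-4792984, plus strand: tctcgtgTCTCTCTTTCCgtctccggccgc
Rps28, chr17:33824543-33824572, minus strand: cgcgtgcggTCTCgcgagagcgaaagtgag
Rpl27, chr11:101442235-101442264, plus strand: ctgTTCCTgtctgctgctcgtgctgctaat
Rpl36al, chr12:69184048-69184077, minus strand: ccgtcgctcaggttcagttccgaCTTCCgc
Rps27l, chr9:66946076-66946105, plus strand: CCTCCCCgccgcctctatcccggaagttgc
Rpl22, chr4:152325716-152325745, plus strand: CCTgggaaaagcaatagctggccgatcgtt
Rpl34, chr3:130730379-130730408, minus strand: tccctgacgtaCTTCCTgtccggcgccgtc
Rps6, chr4:86857348-86857377, minus strand: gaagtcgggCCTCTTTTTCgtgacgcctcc
Rplp2, chr7:141447641-141447670, plus strand: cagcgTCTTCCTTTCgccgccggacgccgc

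Runs of 8 or more C and T in this window were found at 23 of 74 start sites of the ribosomal protein genes, or 31.1%, against 11.2% of all 32851 start sites in the table. The letters CTTTC, searched on the gene's strand from 25 bases before to 25 bases from the start, were in 25.7% of their start sites and in 6.75% of all. Searched on both strands they were in 32.4% and 12.5%. The longer CTCTTTC, which contains CTTTC, was in 9.46% and 0.682% on the gene's strand. CCGGAAG, the core letters of sites for ETS-family factors, was in 36.5% of the 300-base promoters of the ribosomal protein genes and in 8.86% of all, on either strand. TATAAA, searched on the gene's strand from 50 bases before to 25 bases from the start, was in 4.05% and 3.03%. These are matches of letters and not measured sites, and an annotated start can differ from the start used in the retina.

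Of the 82 genes, 79 passed the filter on low counts. The 3 that did not pass are paralogs known for other tissues. Rpl10l, which stands in for Rpl10 in male germ cells of the mouse, had 0 counts in every library, which allows up to 0.111 to 0.122 CPM. Rpl39l, also of male germ cells, had 2 counts in MCS replicate 2 and 0 in the other 3 libraries. Rpl3l, the form of striated muscle, had 6 and 0 counts with CrAT, against 1 and 7 with MCS. Their parent genes were far above these counts. Rpl3, next to the peptidyl transferase centre, was at 547 and 553 CPM with CrAT, against 382 and 518 CPM with MCS. The X-linked Rpl10, a late-joining protein of the large subunit, was at 174 and 172 CPM with CrAT, against 124 and 207 CPM with MCS. Rpl39, at the exit tunnel of the ribosome, was at 56.1 and 63.5 CPM with CrAT, against 38.5 and 61.1 CPM with MCS. In all 3 parent genes MCS replicate 1 was the lowest library.

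Per length, the 79 genes ranged widely although most of their proteins are used in equal numbers. On the deposited FPKM scale (counts per kilobase of summed exons, scaled to the depth of the library) the median gene had a mean over the 4 libraries of 68.2. Among the highest was Rplp0, the base of the stalk, with 320 and 303 FPKM with CrAT, against 264 and 396 FPKM with MCS. High levels were also found for Rpl36 with a mean of 284 FPKM, the stalk protein Rplp1 with 275, Rpl4 with 247 and Rps3a1 with 227, followed by Rpl41, whose protein is the smallest of the ribosome, with 194 and Rps15 with 188. The lowest was Rps15a, with 7.84 and 8.65 FPKM with CrAT, against 6.84 and 10.5 FPKM with MCS. The divisor is the summed length of all annotated exons of a gene, 6270 bases for Rps15a and 383 bases for Rpl36, which can be longer than the transcript that is present. Across the 79 genes, which share libraries, level and that length had a Spearman correlation of -0.50 and a Pearson correlation of -0.45.

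**Figure D1:**
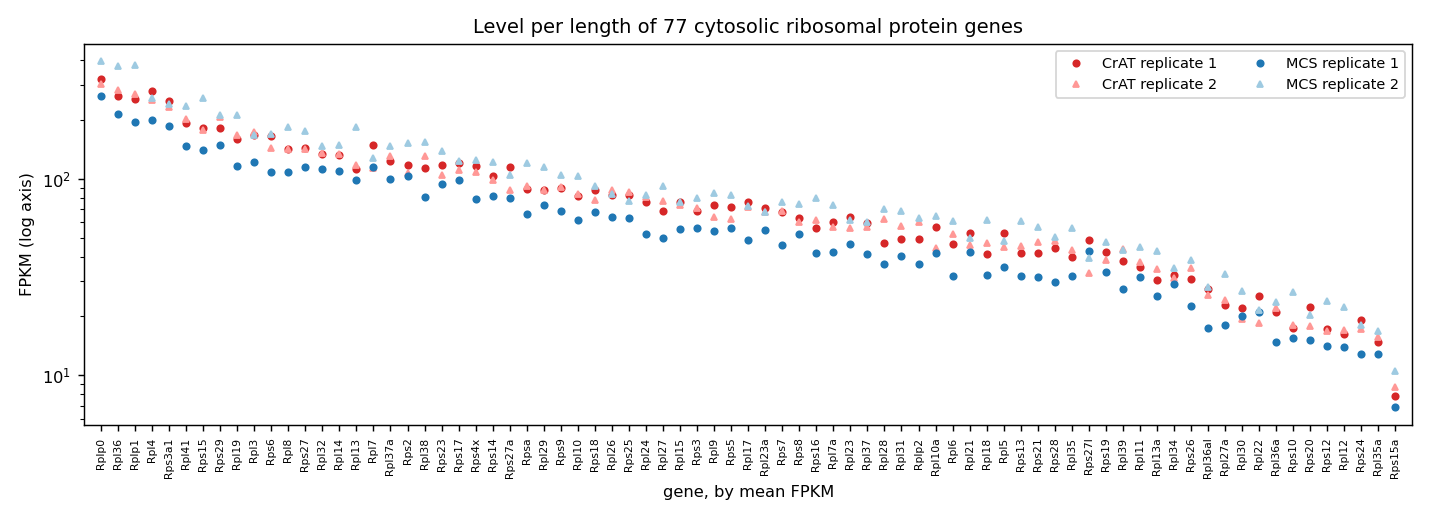
FPKM (log axis) of 77 of the 79 genes in the 4 libraries, ordered by mean. They run from Rplp0 at a mean of 321 FPKM to Rps15a at 8.46, and MCS replicate 1 (dark blue circles) lies below the other points for nearly all genes.

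Ribosomal protein transcripts were lower in MCS replicate 1 than in the other 3 libraries. Their summed level was 12713 and 12091 CPM with CrAT, against 9308 and 13883 CPM with MCS. The groups overlap, with MCS holding both the lowest and the highest library. MCS replicate 1 was compared with the rest because it had stood apart in earlier results of these data, and as 1 library it gives no test, so the values are a description. In bulk RNA, fewer cells of a type and less RNA per cell cannot be told apart. For each gene the log2 ratio was taken as log2(CPM + 0.5) in MCS replicate 1 minus the mean of the same over the other 3 libraries. Its median over the 79 genes was -0.47, or 72.1% of the other libraries, with quartiles of -0.60 and -0.39. Over all 19638 genes tested the median was 0.02, with quartiles of -0.36 and 0.41. The ratio was below 0 for 78 of the 79 genes, beside 48.7% of all genes tested.

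MCS replicate 1 was the lowest of the 4 libraries for 76 of the 79 genes, or 96.2%. This held for 28.7% of all genes tested, and for more of the short genes, as given below. MCS replicate 1 was the highest for 0 of the 79, beside 27.3% of all. MCS replicate 2 was the highest for 56 of them, beside 28.2% of all. The lowest place fell to CrAT replicate 2 for Rpl22, Rpl30 and Rps27l, and to CrAT replicate 1 and MCS replicate 2 for 0 genes. Taken the same way, as each library over the mean of the rest, the median log2 ratio was 0.09 for CrAT replicate 1, 0.06 for CrAT replicate 2 and 0.32 for MCS replicate 2. The 2 MCS libraries thus stood on opposite sides of the CrAT libraries. MCS replicate 2 was higher than MCS replicate 1 for 78 of 79 genes, by a median of 1.53-fold, while CrAT replicate 1 was higher than CrAT replicate 2 for 44 of 79, by a median of 1.02-fold.

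**Figure D2:**
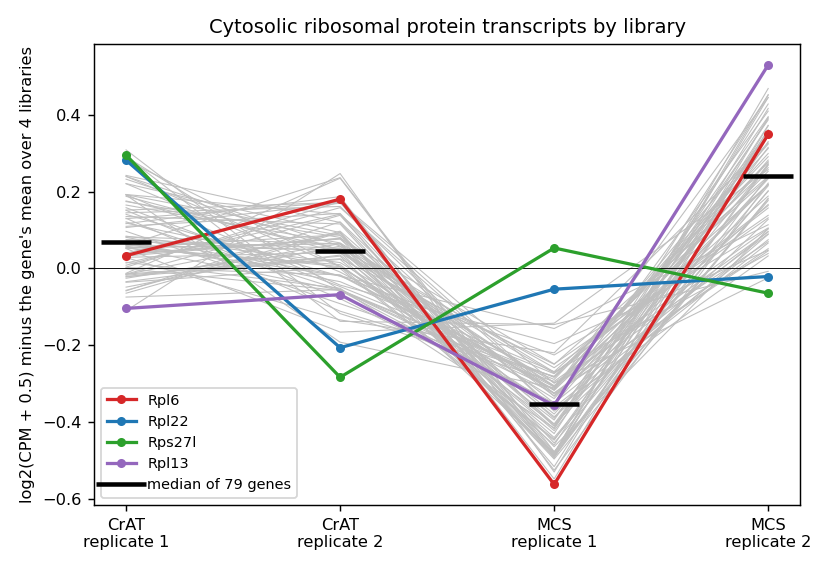
Each grey line is 1 of the 79 genes, drawn as log2(CPM + 0.5) minus the gene's mean over the 4 libraries, with the median of all genes as a black bar. The genes dip together in MCS replicate 1 and lie highest in MCS replicate 2, with Rpl6 (red) the lowest of MCS replicate 1 and Rpl13 (purple) the highest of MCS replicate 2, while Rps27l (green) and Rpl22 (blue) do not share the dip.

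The genes furthest down in MCS replicate 1 belong to both subunits. Rpl6 (ENSMUSG00000029614, chromosome 5 from 121342544 to 121347304 in the table's coordinates, whose build the table does not name) was at 150 and 166 CPM with CrAT, against 99.0 and 187 CPM with MCS. It stood at 59.5% of the other libraries, the lowest share of the 79. Rpl38, which mouse mutants tie to patterning of the skeleton, was at 63.1 and 71.1 CPM with CrAT, against 42.9 and 81.6 CPM with MCS. Rpl28, a protein found in eukaryotic but not bacterial ribosomes, was at 89.6 and 115 CPM with CrAT, against 66.9 and 127 CPM with MCS. Each of these 3 has MCS replicate 1 below every other library. Rps28, at the head of the small subunit, was at 78.96 and 82.9 CPM with CrAT, against 50.4 and 85.0 CPM with MCS. Rpl27 was at 109 and 119 CPM with CrAT, against 75.1 and 138 CPM with MCS. Rpl36al, a paralog of the X-linked Rpl36a, was at 38.2 and 34.9 CPM with CrAT, against 23.0 and 37.2 CPM with MCS. Rpl36a itself was close to it, with 35.7 and 36.6 CPM with CrAT, against 24.01 and 38.1 CPM with MCS, and in both genes MCS replicate 1 was lowest.

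The genes that least followed this pattern include Rps27l, a paralog of Rps27 that p53 induces in human cells. Rps27l (ENSMUSG00000036781, chromosome 9 from 66853368 to 66856798 in the table's coordinates) was at 40.8 and 27.2 CPM with CrAT, against 34.4 and 31.7 CPM with MCS, a log2 ratio of 0.07 for MCS replicate 1, the only one above 0. Its parent Rps27 was at 154 and 149 CPM with CrAT, against 117 and 180 CPM with MCS, with a ratio of -0.45. The paralogs therefore differed in which library was lowest, CrAT replicate 2 for Rps27l and MCS replicate 1 for Rps27. Rpl22, which in the mouse represses its paralog Rpl22l1, was at 76.1 and 54.1 CPM with CrAT, against 60.2 and 61.6 CPM with MCS, a ratio of -0.07. Rpl22l1, not among the 82 genes, was at 33.1 and 33.5 CPM with CrAT, against 22.3 and 32.4 CPM with MCS, with a ratio of -0.56. Rpl30 had a ratio of -0.19, Rpl7 of -0.20, Rpl34 of -0.21 and Rpl21 of -0.26. Rpl7 was at 414 and 307 CPM with CrAT, against 305 and 336 CPM with MCS, so that CrAT replicate 1 rather than MCS replicate 1 stood apart there.

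By role in the ribosome the ratios were alike. Over 44 large subunit genes the median log2 ratio of MCS replicate 1 was -0.49, and over 32 small subunit genes it was -0.44. MCS replicate 1 was the lowest library for 42 of the 44 and 31 of the 32. The 3 stalk genes, whose proteins recruit elongation factors, had a median of -0.64. Rplp0 was at 548 and 507 CPM with CrAT, against 431 and 645 CPM with MCS, Rplp1 at 132 and 136 CPM against 95.4 and 185 CPM, and Rplp2 at 105 and 125 CPM against 75.4 and 128 CPM. All 3 were lowest in MCS replicate 1 and highest in MCS replicate 2. Rps6, the substrate of the S6 kinases downstream of mTOR, was at 270 and 230 CPM with CrAT, against 168 and 263 CPM with MCS. Rpl5 and Rpl11, which together can bind and restrain Mdm2, had ratios of -0.48 and -0.33. Rps27a, made as a fusion with ubiquitin, was at 234 and 174 CPM with CrAT, against 154 and 203 CPM with MCS. The X-linked Rps4x was at 195 and 178 CPM with CrAT, against 127 and 200 CPM with MCS. In Rps6, Rps27a and Rps4x alike MCS replicate 1 was the lowest library.

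Genes with and without the letters CTTTC near the start had like ratios. The 17 tested genes with them at the first start site listed had a median of -0.52, and the 42 tested genes in the promoter table without them had a median of -0.51. Both Rpl38 and Rpl28, with long runs of C and T in the windows printed above, and Rps28 and Rpl27, with short ones, were among the lowest in MCS replicate 1. As an annotated start can differ from the start used, these letters need not sort genes by their TOP tract. The part of the tract in the ratios was not tested.

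The low level in MCS replicate 1 was shared by other genes of short summed exon length and by the other ribosome of the cell. Nuclear genes of the mitochondrial ribosome, which translates the messages of the mitochondrial genome, numbered 78, all tested. Their median log2 ratio was -0.46, beside -0.47 for the cytosolic genes. MCS replicate 1 was the lowest library for 66 of the 78, beside 28.7% of all genes tested. The summed level of the 78 was 4850 and 4684 CPM with CrAT, against 3566 and 5333 CPM with MCS. This is the same order of libraries as for the cytosolic genes. Among protein-coding genes other than the cytosolic ribosomal ones averaging 5 log2 CPM or more, the median ratio was -0.52 for 112 genes with under 1000 bases of summed exons. It was -0.38 for 580 genes from 1000 to 2000 bases, -0.19 for 1863 genes from 2000 to 4000 bases and 0.10 for 3530 genes of 4000 bases or more. The cytosolic ribosomal genes in the same length ranges had medians of -0.49 (11 genes), -0.55 (33 genes), -0.47 (29 genes) and -0.42 (6 genes). They were thus near other genes of the shortest range and below other genes in the longer ranges. From the shortest range to the longest, MCS replicate 1 was the lowest library for 79.5%, 63.8%, 46.4% and 22.9% of the other genes. For the cytosolic ribosomal genes it was lowest for 10 of 11, 33 of 33, 27 of 29 and 6 of 6. Summed exon length counts all annotated exons, and the part of transcript length in the result was not tested.

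**Figure D3:**
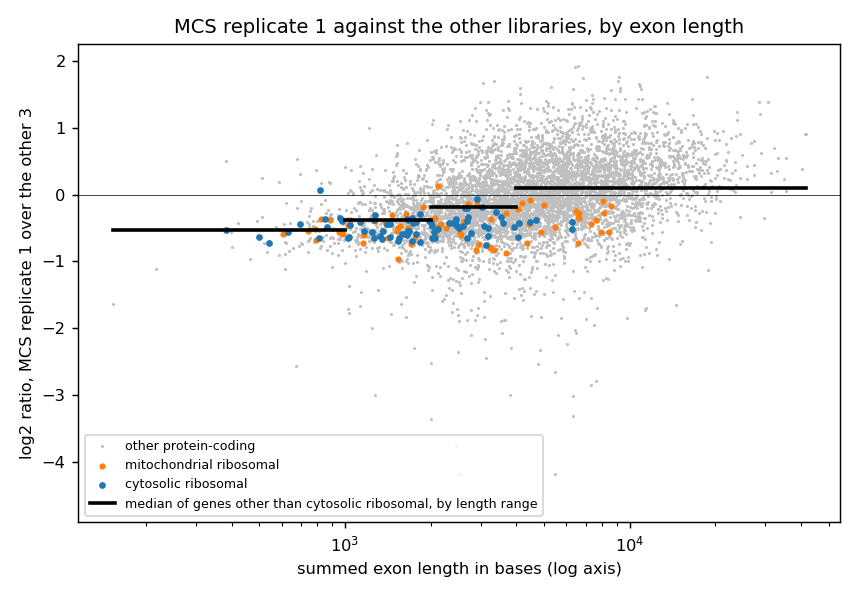
Log2 ratio of MCS replicate 1 over the other 3 libraries against summed exon length in bases (log axis) for 6164 protein-coding genes, with cytosolic ribosomal genes in blue, mitochondrial ribosomal genes in orange and the median of genes other than the cytosolic ribosomal ones in each length range as black lines. The lines climb from -0.52 for the shortest to 0.10 for the longest genes, and both ribosomal sets lie below 0 along nearly the whole axis.

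Most of the nuclear RNAs tested were highest in MCS replicate 1, and markers of other cell types differed between libraries in several orders. Malat1, a nuclear long noncoding RNA, was at 1278 CPM there against 307 to 393 CPM in the other libraries. The 7 nuclear retained RNAs tested of 8 summed to 1483 CPM there against 493 and 549 CPM in CrAT and 415 CPM in MCS replicate 2. Malat1 made up most of the 1483 CPM. Of the 7, 5 were highest in MCS replicate 1, beside 27.3% of all genes tested. Mirg was lowest there, and Snhg11 was highest in CrAT replicate 2, with 130 CPM against 122 CPM in MCS replicate 1. The 12 markers of Mueller glia came to 15699 and 12760 CPM with CrAT, against 23556 and 21037 CPM with MCS, a split by group in the sum. Both CrAT libraries were below both MCS libraries for 8 of the 12, beside 16.6% of all genes tested. MCS replicate 1 was the highest library for 10 of the 12, beside 27.3% of all. The 9 amacrine markers tested of 10 summed to 977 and 2684 CPM with CrAT, against 1144 and 1771 CPM with MCS, lowest in CrAT replicate 1, and Chat, the enzyme of cholinergic amacrine cells, was at 0 counts in 3 libraries. Vascular markers (7 tested of 9, with Cdh5 at 0 in every library) summed to 905 CPM in MCS replicate 1 against 367 to 466 CPM in the others. Kdr with 593 CPM and Flt1 with 244 CPM made up most of the 905 CPM, while Pecam1, Tek and Rgs5 had ratios for MCS replicate 1 of -0.69, -0.52 and -0.25, with Pecam1 at 0.40 CPM there. For the labelled cell type, the 11 ganglion cell markers tested had a median ratio for MCS replicate 1 of -0.82. Of these, 6 were lowest there, beside 28.7% of all genes tested. The part of these differences in the ribosomal protein result was not tested. Rod markers followed another order, with both replicates 1 above both replicates 2.

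The comparison of the groups asks how sorted cells of the injured retina differ when the vector carries CrAT. For ribosomal protein genes no difference passed the test. In edgeR's quasi-likelihood test, adjusted over 19638 genes, 0 of 79 genes passed an adjusted p of 0.05, beside 0% of all genes. At an unadjusted p under 0.05 there were 0 of 79, beside 4.15% of all genes tested, and the smallest unadjusted p of the 79 was 0.30. DESeq2 also called 0, beside 0.154% of the 31851 genes it took, with 0 at an unadjusted p under 0.05 beside 3.04% of all. The median log2 fold change, CrAT over MCS, was 0.09 over the 79 genes and 0.01 over all genes tested. It was above 0 for 58 of the 79, beside 50.6% of all genes, and for 46 when libraries were scaled by their totals alone. All lay between -0.24 and 0.34, with standard errors of 0.28 to 0.38. The median absolute log2 fold change was 0.10 for the 79 genes and 0.31 for all genes.

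Beside this, the 12 markers of Mueller glia had a median log2 fold change of -0.83, and 4 of them were lower with CrAT at an unadjusted p under 0.05 in edgeR, beside 2.87% of all genes tested. Of 5 erythrocyte markers, 4 were higher at that p, beside 1.28% of all, with a sum of 83.8 CPM in CrAT replicate 2 against 6.48 to 7.67 CPM in the others. Of both lists 0 genes passed an adjusted p of 0.05 in edgeR. Their part in the ribosomal protein values was not tested.

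The sign of the ribosomal protein median rested on MCS replicate 1, and its size on both MCS libraries. Without MCS replicate 1 it was -0.17, with 19 of 79 genes above 0, and without MCS replicate 2 it was 0.44, with 78 of 79 above 0. The lower CrAT library exceeded the higher MCS library for 7 of 79 genes, beside 15% of all genes tested, and the higher CrAT library was under the lower MCS library for 0, beside 16.6% of all. They include Rpl3, Rpl4, Rpl17, Rpl23a, Rpl26 and Rps25. The 2 CrAT libraries were close to each other, with a median SD of 0.08 on the log2 scale against 0.43 for the MCS libraries. Over all genes tested these medians were 0.25 and 0.35.

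**Figure D4:**
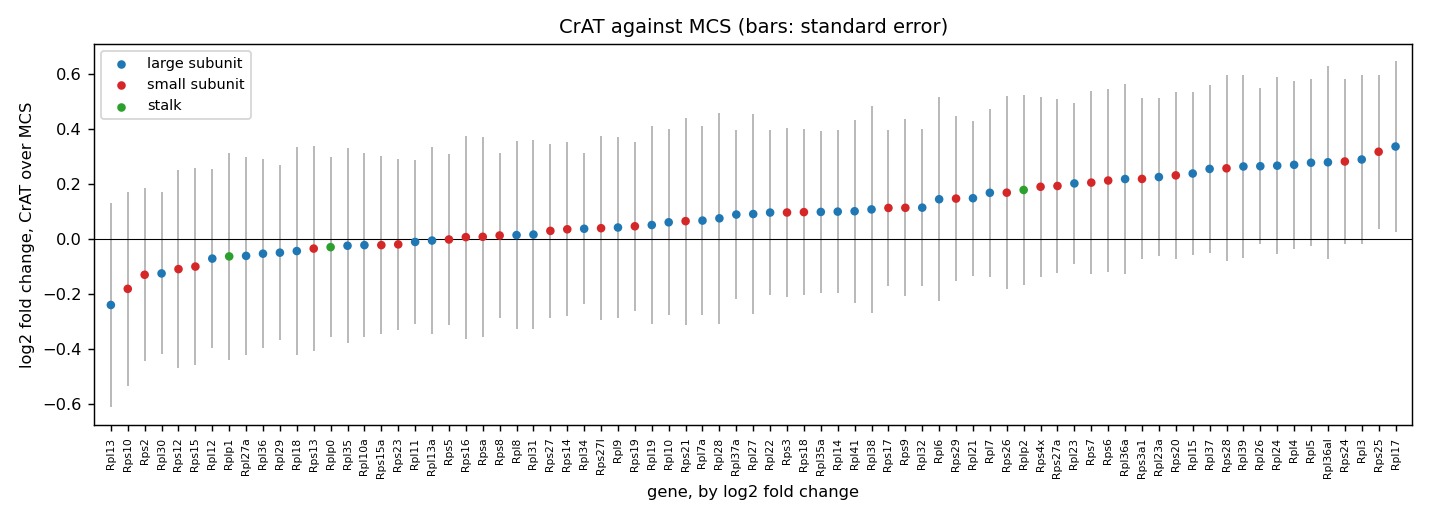
Log2 fold change, CrAT over MCS, of 77 of the 79 genes with its standard error (bars), coloured by subunit and ordered by value. The points run from -0.24 for Rpl13 to 0.34 for Rpl17, and 0 of them passed the test over all genes.

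The highest fold changes were all smaller without MCS replicate 1. Rpl17, which lines the exit tunnel for the growing protein, was at 105 and 96.0 CPM with CrAT, against 63.9 and 94.8 CPM with MCS, a log2 fold change of 0.34 (SE 0.31). Its CrAT values lay just above MCS replicate 2 and well above MCS replicate 1. Rps25, which some viral messages need for translation from an internal start, was at 230 and 233 CPM with CrAT, against 168 and 203 CPM with MCS, a log2 fold change of 0.32 (SE 0.28). Rpl3 had 0.29 (SE 0.31), Rps24 0.28 (SE 0.30) and Rpl36al 0.28 (SE 0.35). Without MCS replicate 1 the log2 fold change was 0.08 in Rpl17, 0.19 in Rps25, 0.09 in Rpl3, 0.07 in Rps24 and -0.02 in Rpl36al. The adjusted p in edgeR over all genes tested was 1.00 for these 5, and MCS replicate 1 was the lowest library in each.

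Among the lowest fold changes, MCS replicate 2 lay above both CrAT libraries in each gene. Rpl13 (ENSMUSG00000000740) was at 300 and 308 CPM with CrAT, against 252 and 466 CPM with MCS, a log2 fold change of -0.24 (SE 0.37). The CrAT libraries lay between the MCS libraries. Rps10, of which human mutations are known in Diamond-Blackfan anaemia, was at 41.5 and 42.1 CPM with CrAT, against 35.1 and 59.7 CPM with MCS, a log2 fold change of -0.18 (SE 0.35). Rps2, at the entry channel of the messenger RNA, was at 221 and 198 CPM with CrAT, against 186 and 272 CPM with MCS, with -0.13 (SE 0.32). Rpl30 had -0.13 (SE 0.30), Rps12 -0.11 (SE 0.36) and Rps15 -0.10 (SE 0.36). The adjusted p was 1.00 for each in edgeR. Without MCS replicate 2 the direction turned for all 6, which is not particular to them, as 78 of the 79 genes were then above 0.

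Genes around the ribosome were compared from lists, and 0 genes of these lists passed an adjusted p of 0.05 in edgeR over all genes tested. Ribosomal protein genes outside the naming rule and close partners numbered 7, all tested. Among them Rack1, which sits on the small subunit and binds protein kinase C, was at 188 and 181 CPM with CrAT, against 120 and 218 CPM with MCS, a log2 fold change of 0.13 (SE 0.36). Their median ratio for MCS replicate 1 was -0.56, with 6 of 7 lowest there, beside 28.7% of all genes tested. Of 19 translation factors and partners, many with a TOP tract, 14 had a log2 fold change above 0, beside 50.6% of all genes tested. The median was 0.14. Nap1l1, a histone chaperone, was at 283 and 268 CPM with CrAT, against 208 and 210 CPM with MCS, a log2 fold change of 0.40 (SE 0.27), and Eif3e, a subunit of initiation factor eIF3, was at 143 and 95.2 CPM against 89.4 and 86.8 CPM. Their median ratio for MCS replicate 1 was -0.27, with 12 of 19 lowest there, beside 28.7% of all genes tested. In Hnrnpa1, an RNA-binding protein of splicing, MCS replicate 2 rather than replicate 1 was lowest, with 217 and 203 CPM with CrAT, against 167 and 145 CPM with MCS.

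Genes that build ribosomes followed another order of libraries in their summed level. Of 40 ribosome biogenesis genes, 33 had a log2 fold change above 0, beside 50.6% of all genes tested. Their median was 0.27, beside 0.01 for all genes. At an unadjusted p under 0.05 in edgeR there were 0, beside 4.15% of all genes tested. Pes1, needed for maturation of the large subunit's RNA, was at 148 and 124 CPM with CrAT, against 94.3 and 71.0 CPM with MCS, a log2 fold change of 0.72 (SE 0.30, unadjusted p = 0.051 in edgeR). Rrn3, which brings RNA polymerase I to ribosomal RNA genes, was at 109 and 124 CPM against 76.9 and 79.6 CPM, with 0.57 (SE 0.27). In both genes the CrAT libraries lay above the MCS libraries. The list as a whole came to 2322 and 2154 CPM with CrAT, against 1866 and 1806 CPM with MCS. There MCS replicate 1 was not the lowest. Ncl alone was at 324 and 267 CPM with CrAT, against 259 and 168 CPM with MCS. Between the MCS libraries Ncl differed by more than the sum did, so their order in the sum rests on it. Of the 40 genes, 26 had a ratio for MCS replicate 1 below 0, beside 48.7% of all genes tested, with a median of -0.10. MCS replicate 1 was the lowest library for 14 of the 40, beside 28.7% of all. Of 18 genes of the mTOR and LARP1 pathway, 13 had a log2 fold change below 0, beside 49.4% of all genes tested, and 2 were lower at an unadjusted p under 0.05 in edgeR, beside 2.87% of all. These were Akt1s1, an inhibitory partner of mTOR complex 1, at 15.96 and 18.1 CPM with CrAT, against 27.2 and 39.3 CPM with MCS (adjusted p = 1.00 in edgeR), and Eif4ebp2, a translation repressor that mTOR switches off, at 11.1 and 12.1 CPM against 16.9 and 29.95 CPM (adjusted p = 1.00 in edgeR). Larp1 was at 14.8 and 15.3 CPM with CrAT, against 20.9 and 33.3 CPM with MCS, a log2 fold change of -0.85 (SE 0.38). There were 7 host genes of small nucleolar RNAs, several of which carry a TOP tract. Of these, 6 had a log2 fold change above 0, beside 50.6% of all genes tested. Their median ratio for MCS replicate 1 was 0.02.

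**Figure D5:**
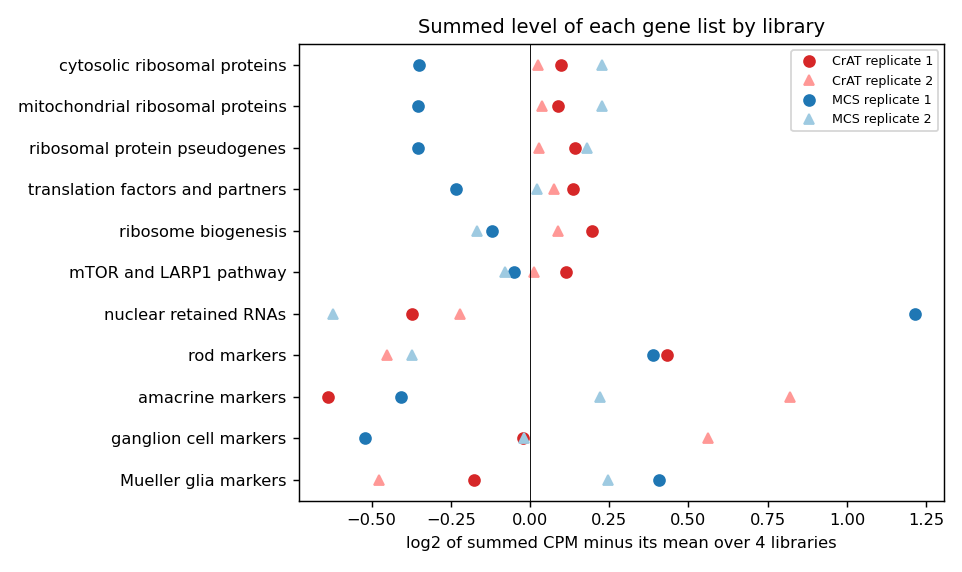
Log2 of the summed CPM of each gene list in each library, minus its mean over the 4 libraries. Cytosolic and mitochondrial ribosomal genes order the libraries alike, with MCS replicate 1 lowest, while ribosome biogenesis genes are highest with CrAT and nuclear retained RNAs are highest in MCS replicate 1.

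The order of the libraries in the summed ribosomal protein level recurred in many other genes. Of 3424 genes outside the 82 averaging 6 log2 CPM or more, 382 had a Pearson correlation above 0.9 with that sum over the 4 libraries. The 8 most alike, each with a correlation of 1.00 after rounding over 4 libraries, were Churc1, Acp1, Alg1, Mrpl17, Cox7a2l, Rack1, Sugp1 and Tbrg1. Mrpl17, a protein of the mitochondrial ribosome, was at 106 and 100.2 CPM with CrAT, against 81.1 and 112 CPM with MCS. With 4 libraries such a correlation says only that the order and spacing of the libraries were alike.

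Ribosomal protein genes have many processed pseudogenes with near-identical sequence, so the count of a single gene is uncertain where reads fit more than 1 place. The table held 322 rows named as pseudogenes of the Rpl and Rps series, of which 114 were tested. Their counts were 4.26% and 4.15% of those of the 82 genes in CrAT and 4.15% and 4.02% in MCS, so the share of reads placed on them was similar across libraries. The counts of 68 to 75 of the ribosomal protein genes per library were rounded from values more than 0.02 from a whole number, among 79 to 81 with any count. The pseudogenes had a median log2 ratio of -0.35 for MCS replicate 1. MCS replicate 1 was the lowest library for 87 of the 114, beside 28.7% of all genes tested.

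Apart from names, the 82 genes share little position. They lie on 19 chromosomes, with at most 14 on one of them, chromosome 7. Their median summed exon length was 1737 bases, against 3563 bases for all protein-coding rows. Across the 79 tested genes the ratio for MCS replicate 1 had a Spearman correlation of 0.22 with exon length and of 0.16 with average level, and the log2 fold change, CrAT over MCS, one of -0.05 with exon length. The gene ontology terms in the table mark 81 of the 82 as structural constituents of the ribosome, a term that 161 genes carry.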

How the data were processed

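RNA of 4 libraries, 2 CrAT and 2 MCS by the sample titles, was analysed. Cells were sorted by flow cytometry, per the design text in the labels. Per the labels' protocols, libraries came from a SMART-seq kit for low input, which does not mark strand. STAR 2.7.2b is listed in the submitters' processing notes, with GRCm38.p6 and mm10 as builds. No source used here gives the counter's settings. The authors deposited estimated counts per gene, rounded from values in hundredths, and FPKM per gene. A further 4 columns of other samples, 2 in each table, were left out. Genes were kept with filterByExpr, scaled by TMM and tested with edgeR 4.0.16 (quasi-likelihood, group as the only term, Benjamini-Hochberg over 19638 genes, two-sided), with DESeq2 1.42.0 beside it, in R 4.3.3. Rounded estimated counts were tested where whole counts had been planned for. A standard error is the log2 fold change divided by the square root of F. On simulated counts for this comparison (19031 genes tested, 50 changed genes per size), edgeR recovered 8% of genes changed 2-fold, 56% of those changed 4-fold, 96% of those changed 16-fold and 100% of those changed 64-fold, and called 11 unchanged genes. Replicates, 2 per group, lay further apart than sampling noise, with a chi-square per degree of freedom of 77.5 for CrAT and 131 for MCS. Limits from 3 counts cover counting error only. The members, the gene lists and the comparison of MCS replicate 1 were chosen with earlier results of these data known. Genes named were the 8 highest by mean FPKM, the 6 at each end of the fold change and of the ratio for MCS replicate 1 among genes averaging 4 log2 CPM or more, paralogs with their parents, the stalk genes, Rps6, Rpl5, Rpl11 and Rps27a, and up to 3 genes with the smallest p of each list. Rpl22l1, Malat1, Pou4f2, Chat, Cdh5, Ncl, Snhg11, Kdr, Tek and Rgs5 were chosen after their values were seen. So were the genes named for not overlapping or for the lowest library. Single-gene results of 2 genes that this rule names are not reported here, and counts and medians over all 79 genes include them.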

Additional observations from a re-analysis of the deposited data

How the results depend on the processing

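Alternatives were DESeq2 size factors, library totals, no filter, DESeq2's test, the replicate block, and leaving out each library. For the ribosomal protein genes 0 passed the threshold under each. Over all genes the count was 0, but 2 with no filter in edgeR and 49 in DESeq2. The median log2 fold change of the ribosomal protein genes was -0.17 to 0.44 when 1 library was left out, and 0.04 with library totals. The median log2 ratio of MCS replicate 1 was -0.54 to -0.43 over all its alternatives, including pseudocounts of 0.1 and 2 and deposited FPKM. Without 1 library the log2 fold change ranged from -0.022 to 0.67 in Rpl36al, -0.61 to 0.28 in Rpl13, -0.51 to 0.26 in Rps10, -0.38 to 0.17 in Rps2, -0.31 to 0.095 in Rpl30, -0.44 to 0.33 in Rps12 and -0.47 to 0.40 in Rps15. Gene by gene, the replicate differences with CrAT and with MCS were correlated (0.47 over 19638 genes and 0.69 over the 79). The labels do not say what a replicate number marks. Such a correlation leaves out a shift common to the 79 genes, and the replicates 1 did not share one. MCS replicate 1 was below MCS replicate 2 for 78 of 79, while CrAT replicate 1 was above CrAT replicate 2 for 44 of 79. With the replicate number as a block the median was 0.12, 68 of 79 genes were above 0 and 0 passed, with 0 at an unadjusted p under 0.05. Over all genes 0 passed and 1922 were under 0.05 unadjusted, against 815 without it. No library was dropped from the values reported. With 2 libraries a group, changes near 2-fold are mostly below what this test can call.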
